A study of Mus musculus with 12 samples.

Results

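The 10 genes described here encode the transcriptional coactivators YAP (Yap1) and TAZ (Wwtr1), their DNA-binding partner TEAD1 (Tead1) and 7 established target genes, Ccn1, Ccn2, Ankrd1, Axl, Amotl2, Lats2 and Ajuba. They were taken by Ensembl gene ID from a table of 56748 genes, and all 10 passed the filter on low counts that left 14338 genes. RNA was sequenced from mouse adipose-derived mesenchymal stem cells, stromal cells isolated from fat, with 3 libraries in each of 4 groups. The groups were 24 h spheroids (3D), 0 h spheroids (3D), 24 h attached cells (2D) and 0 h attached cells (2D), all kept in DMEM with serum and antibiotics. No genotype, drug or mouse age is given in the labels. The labels also leave out the number of animals, the way the spheroids were made and their age at the first time. They do not state that libraries of a group came from separate cultures, so p-values reflect the spread among these libraries, and that spread may be technical.

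YAP and TAZ are the effectors of the Hippo pathway. The kinases LATS1 and LATS2 phosphorylate them, which holds them in the cytoplasm, and when unphosphorylated they enter the nucleus and bind TEAD factors at target genes. In stromal cells, spreading on a stiff surface and tension in the actin cytoskeleton are known to favour nuclear YAP and TAZ, while rounding and crowding oppose it. RNA levels do not measure where the proteins are or whether they are phosphorylated.

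The core word bound by TEAD factors, GGAATG, occurs in the promoter windows of all 8 genes for which RefSeq promoters (build GRCm38.p6) were at hand. No window was at hand for Ccn2 and Tead1. A window runs from 250 bases before to 50 bases after a start site. The word was searched on both strands and was present in 16.6% of the 27025 genes with a window, counting any of a gene's windows. The 250 bases upstream of the start of Ccn1 and Ankrd1 are shown because both genes were far lower in spheroids. They lie on the minus strand at chr3:145649986-145650235 and chr19:36119845-36120094, and capitals mark the word or its reverse complement.
Ccn1: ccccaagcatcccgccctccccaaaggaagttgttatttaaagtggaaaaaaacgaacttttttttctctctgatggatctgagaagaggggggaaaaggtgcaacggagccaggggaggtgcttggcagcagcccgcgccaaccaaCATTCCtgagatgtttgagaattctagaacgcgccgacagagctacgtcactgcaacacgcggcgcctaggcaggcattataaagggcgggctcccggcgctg
Ankrd1: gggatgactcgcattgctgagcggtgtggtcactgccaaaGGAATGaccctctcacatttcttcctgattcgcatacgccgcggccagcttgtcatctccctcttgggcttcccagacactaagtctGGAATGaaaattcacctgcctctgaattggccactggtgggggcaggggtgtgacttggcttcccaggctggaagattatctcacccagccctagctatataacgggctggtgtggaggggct

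The following 30-base stretches, with the same use of capitals, show the word in targets that fell to differing extents and in the coactivator genes themselves. They lie at chr9:102717727-102717756 on the plus strand for Amotl2, and on the minus strand at chr7:25788949-25788978 for Axl, chr14:54577830-54577859 for Ajuba, chr9:8004720-8004749 for Yap1 and chr3:57576029-57576058 for Wwtr1.
Amotl2: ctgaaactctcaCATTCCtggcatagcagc
Axl: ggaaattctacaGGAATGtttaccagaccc
Ajuba: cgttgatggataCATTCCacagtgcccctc
Yap1: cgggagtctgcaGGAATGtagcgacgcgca
Wwtr1: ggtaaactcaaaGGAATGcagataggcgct

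The word began 103 bases before the start of Ccn1, 65 before that of Amotl2, 141 before that of Yap1 and 233 before that of Axl. Ankrd1 held it at 210 and 123 bases before its start, and Ajuba at 186 and 164. In Lats2 it lay just downstream of the start, at bases 5 to 10, in 1 of its 2 windows. Distances are from the start site of the window. For Yap1, Axl, Amotl2 and Lats2 that site was not the outermost annotated start of the gene. Neither the AP-1 word TGANTCA, present in 8.97% of genes with a window, nor the CArG box bound by SRF, present in 1.81%, was found in any of the 8 genes' windows. These matches describe letters in a window of another genome build than the one used for counting, and not binding.

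**Figure D1:**
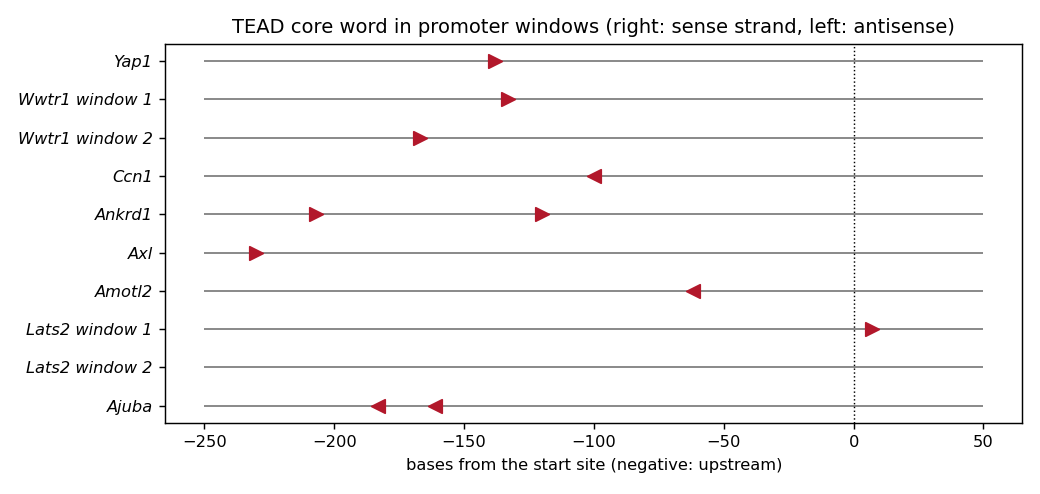
Positions of the TEAD core word in the promoter windows of the 8 genes with a RefSeq window; the x axis gives bases from the start site, and arrowheads give the strand. The word lies upstream of the start in 7 genes and just downstream in Lats2, and 1 Lats2 window holds none.

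Library totals lay between 10182590 and 17109609 expected counts. Log2 levels correlated across genes at 0.968 to 0.984 within groups and at 0.895 to 0.958 between groups. No pair of replicates agreed within sampling noise, with a chi-square per degree of freedom of 4.56 to 35.7. It was highest between replicates 2 and 3 of 0 h attached cells. In 24 h spheroids it reached 28.1, and in 24 h attached cells 21.4. Pairs of 0 h spheroids had at most 7.66. The labelled cell type was not checked against marker genes, since no table used here pairs the other gene IDs with names.

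In spheroids, most of the set stood well below its level in attached cells, at both times. At 0 h, 8 of the 10 genes were lower in 3D than in 2D, none was higher and 2 were not called. A call is an adjusted p under 0.05 in edgeR's quasi-likelihood test over all genes, and 22.7% of the 14338 genes were called lower. At 24 h, 9 of 10 were lower and 1, Wwtr1, was higher, where 22.8% of all genes were called lower and 19.6% higher. The median log2 fold change of the 10 genes was -1.92 at 0 h and -1.63 at 24 h, beside medians of 0.02 and 0.00 over all genes. The genes were chosen with earlier results of these data known. Their counts beside shares of all genes, here and below, therefore describe the set and are no unbiased test of it. Since these are bulk libraries, fewer cells with a transcript and less of it per cell cannot be told apart.

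**Figure D2:**
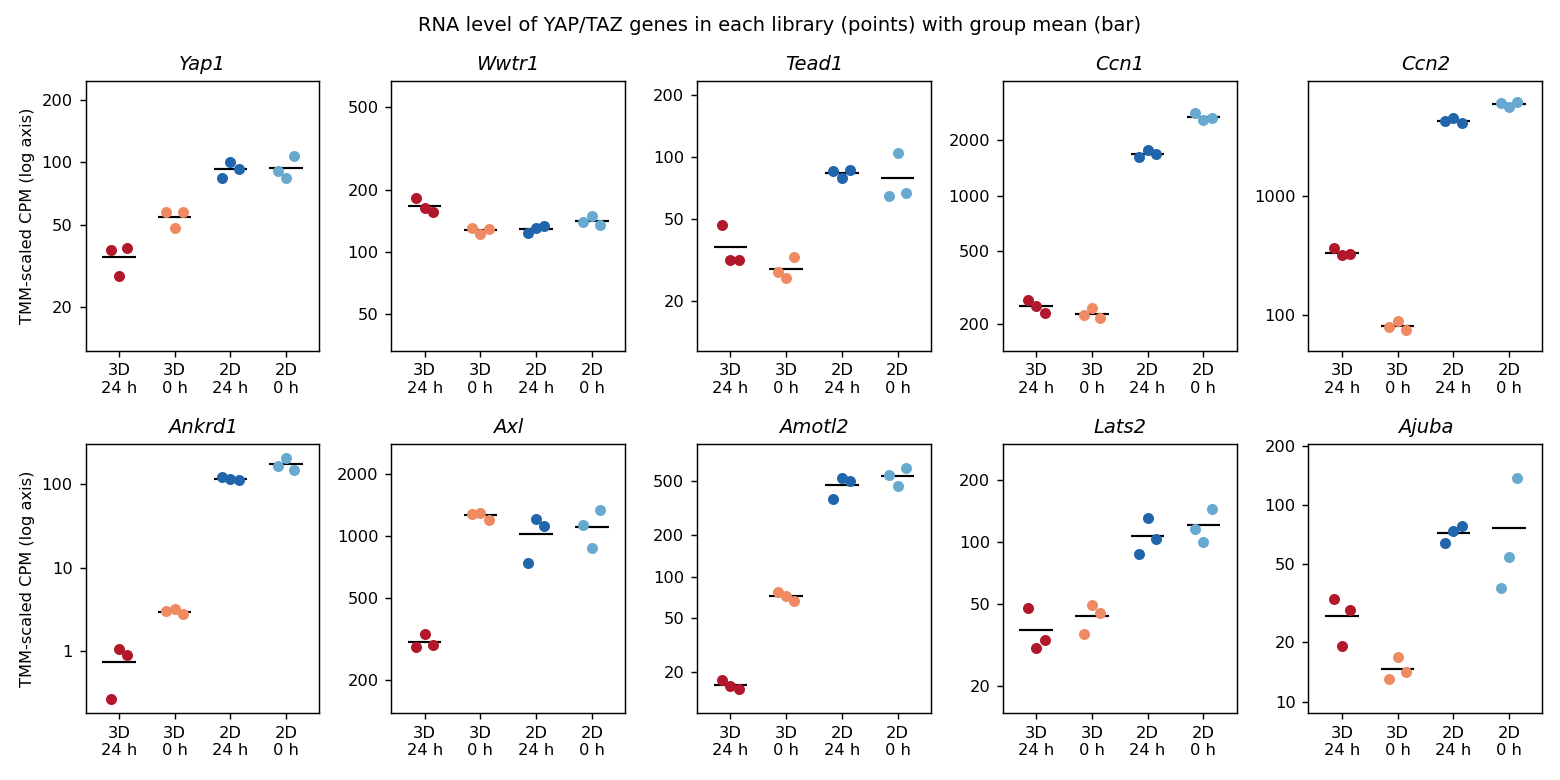
RNA level of the 10 genes in each library as CPM (counts divided by TMM-adjusted library totals) on log axes; points are libraries, bars are means of 3, and groups run from 3D 24 h to 2D 0 h. Ccn1, Ccn2, Ankrd1 and Amotl2 separate 3D from 2D libraries by wide gaps, Wwtr1 stays within a narrow range, and Axl is low in 24 h spheroids and not in 0 h spheroids.

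Yap1 was lower in spheroids at both times, and lowest at 24 h. Its level (ENSMUSG00000053110) was 37.6, 28.1 and 38.6 CPM in 24 h spheroids and 57.8, 48.2 and 57.6 CPM in 0 h spheroids. In 2D it was 84.6, 100.3 and 93.2 CPM at 24 h and 90.8, 83.8 and 108.0 CPM at 0 h. Every 3D library lay below every 2D library, and the 3D libraries of the 2 times did not overlap. At 24 h the gene was 2.66-fold lower in 3D than in 2D (log2 fold change -1.41 ± 0.14, SE; edgeR adjusted p = 3.5e-07). At 0 h it was 1.73-fold lower (log2 fold change -0.79 ± 0.14, edgeR adjusted p = 0.00018).

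Wwtr1 (ENSMUSG00000027803), which encodes TAZ, did not follow Yap1. It had 181.7, 162.5 and 156.2 CPM in 24 h spheroids and 130.1, 122.3 and 128.6 CPM in 0 h spheroids. In 2D it had 123.6, 130.8 and 133.0 CPM at 24 h and 139.3, 149.5 and 134.0 CPM at 0 h. The spheroids at 24 h were thus above all other libraries, while the other 3 groups lay between 122.3 and 149.5 CPM. At 24 h the gene was 1.29-fold higher in 3D than in 2D (log2 fold change 0.37 ± 0.10, SE; edgeR adjusted p = 0.0052). At 0 h the difference was not called, with a log2 fold change of -0.15 and a 95% interval of -0.36 to 0.05 (edgeR adjusted p = 0.22), although the libraries of the 2 groups did not overlap.

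Per unit of transcript length, TAZ and YAP transcripts were about level in 2D cells and unequal in spheroids. The ratio of Wwtr1 to Yap1 in TPM (an abundance corrected for transcript length and library size) was 3.76, 5.08 and 3.07 in 24 h spheroids, and 1.79, 2.13 and 1.86 in 0 h spheroids. It was 1.14, 1.02 and 1.15 in 24 h attached cells, and 1.05, 1.47 and 0.968 in 0 h attached cells. The 3D ratios lay above the 2D ratios without overlap at each time. An exact permutation test on the log2 ratios, two-sided, gave p = 0.1 for 3D against 2D at each time, the smallest that 3 against 3 libraries allow (0.11 after adjustment over 8 tests).

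**Figure D3:**
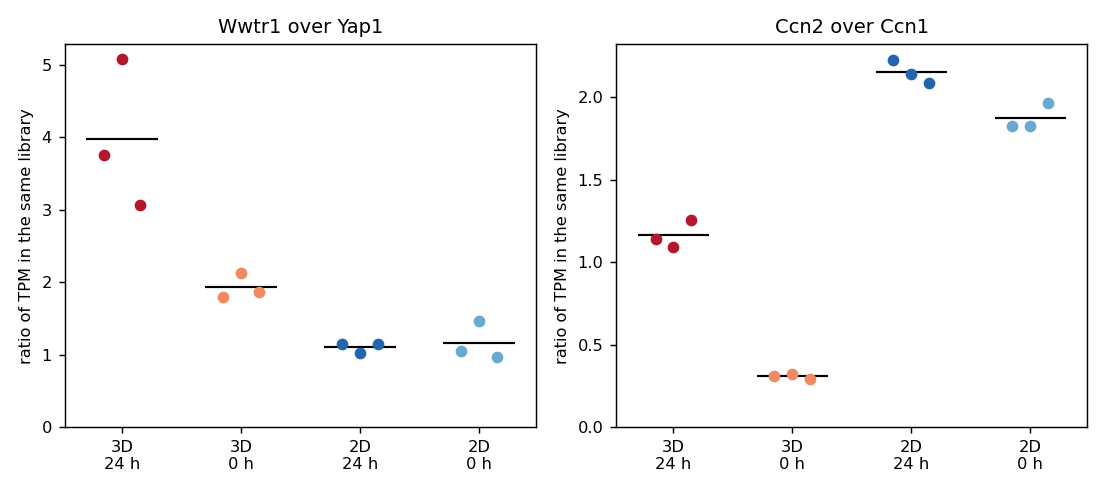
Ratios of TPM within each library for Wwtr1 over Yap1 and Ccn2 over Ccn1; points are libraries and bars are means of 3. The Wwtr1 to Yap1 ratio is highest in 24 h spheroids, at 3.07 to 5.08, and the Ccn2 to Ccn1 ratio is lowest in 0 h spheroids, at 0.291 to 0.324.

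Tead1 (ENSMUSG00000055320), which encodes a factor that brings YAP and TAZ to DNA, was lower in spheroids at both times. It averaged 36.7 ± 8.78 CPM in 24 h spheroids and 28.8 ± 3.64 CPM in 0 h spheroids. In 2D it averaged 83.5 ± 3.95 CPM at 24 h and 78.8 ± 22.1 CPM at 0 h (SD, n = 3). The gene was 2.27-fold lower in 24 h spheroids (edgeR adjusted p = 5.4e-05) and 2.74-fold lower at 0 h (edgeR adjusted p = 7.3e-06). The 2 times did not differ beyond the spread in either culture (edgeR adjusted p = 0.13 in 3D and 0.75 in 2D).

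Ccn1 (ENSMUSG00000028195) and Ccn2 (ENSMUSG00000019997) encode secreted matricellular proteins and are the most used readouts of YAP and TAZ. Both were far less prominent in spheroids than in attached cells, where they were among the most abundant transcripts. By mean TPM, Ccn2 ranked 721 of all genes in 24 h spheroids and 2908 in 0 h spheroids, against 21 in 24 h attached cells and 15 in 0 h attached cells. Ccn1 ranked 855 in 24 h spheroids and 998 in 0 h spheroids, against 77 in 24 h attached cells and 51 in 0 h attached cells. Ccn2 alone took 0.0357% ± 0.0027 of the counts of a library in 24 h spheroids and 0.00822% ± 0.00058 in 0 h spheroids. In 2D it took 0.418% ± 0.020 at 24 h and 0.552% ± 0.024 at 0 h (SD, n = 3).

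Ccn2 had 361.4, 318.0 and 323.6 CPM in 24 h spheroids and 80.1, 89.2 and 75.3 CPM in 0 h spheroids. It had 4205, 4480 and 4106 CPM in 24 h attached cells and 5959, 5514 and 6105 CPM in 0 h attached cells. The 4 groups did not overlap, and each differed from its neighbour in the order of levels. The gene was 12.7-fold lower in 24 h spheroids (log2 fold change -3.67 ± 0.10, SE; edgeR adjusted p = 2.7e-14). At 0 h it was 71.8-fold lower (log2 fold change -6.17 ± 0.11, edgeR adjusted p = 1.8e-16), and 13 of the 14338 genes had a lower fold change there. Its expected counts were not whole in 11 of 12 libraries, so the authors' counting split some of its reads with other genes.

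Ccn1 had 270.2, 248.3 and 227.6 CPM in 24 h spheroids and 223.8, 243.8 and 213.7 CPM in 0 h spheroids. It had 1628, 1761 and 1674 CPM in 24 h attached cells and 2807, 2572 and 2658 CPM in 0 h attached cells. The spheroid groups overlapped with each other, and both 2D groups stood clear above them. The gene was 6.78-fold lower in 24 h spheroids (log2 fold change -2.76 ± 0.09, SE; edgeR adjusted p = 5.7e-13). It was 11.8-fold lower at 0 h (log2 fold change -3.56 ± 0.10, edgeR adjusted p = 1.5e-13).

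In these libraries the balance between these 2 family members also stood apart by culture. The ratio of Ccn2 to Ccn1 in TPM was 1.16 ± 0.083 in 24 h spheroids, 0.309 ± 0.017 in 0 h spheroids, 2.15 ± 0.069 in 24 h attached cells and 1.87 ± 0.078 in 0 h attached cells (SD, n = 3). No 2 groups overlapped in this ratio. Each of the 4 exact permutation tests gave p = 0.1, the smallest possible (0.11 after adjustment over 8 tests), so none could be called at 0.05.

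Ankrd1 (ENSMUSG00000024803), which encodes a nuclear ankyrin-repeat protein, had the lowest fold change of the set at 24 h. It had 0.272, 1.06 and 0.897 CPM in 24 h spheroids, from 5, 13 and 12 counts, and 3.02, 3.20 and 2.77 CPM in 0 h spheroids. In 2D it had 123.6, 116.0 and 112.4 CPM at 24 h and 166.6, 204.1 and 147.8 CPM at 0 h. The transcript was close to the detection limit in spheroids and plainly present in every 2D library. At 24 h it was 167-fold lower in 3D (log2 fold change -7.39 ± 0.25, SE; edgeR adjusted p = 4.5e-13), and 10 genes had a lower fold change. With limma on log2(TPM + 1) it was 62.4-fold lower. From summed counts, 30 in 3D and 4247 in 2D, the ratio was 171 with an exact 95% interval of 120 to 254 that covers counting error only. At 0 h it was 57.4-fold lower (log2 fold change -5.84 ± 0.21, edgeR adjusted p = 2.3e-12), and 37.3-fold with limma on log2(TPM + 1).

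Axl (ENSMUSG00000002602), which encodes a receptor tyrosine kinase for the ligand GAS6, differed between the cultures at 24 h but was not called at 0 h. It had 290.6, 336.4 and 295.1 CPM in 24 h spheroids and 1276, 1299 and 1201 CPM in 0 h spheroids. It had 736.7, 1211 and 1124 CPM in 24 h attached cells and 1124, 878.4 and 1329 CPM in 0 h attached cells. The spheroids at 24 h lay below all other libraries, and the other 3 groups overlapped. The gene was 3.33-fold lower in 24 h spheroids (log2 fold change -1.74 ± 0.16, SE; edgeR adjusted p = 1.7e-07). At 0 h the log2 fold change was 0.18 with a 95% interval of -0.15 to 0.52 (edgeR adjusted p = 0.37).

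Amotl2 (ENSMUSG00000032531), Lats2 (ENSMUSG00000021959) and Ajuba (ENSMUSG00000022178) are targets that act back on the pathway: angiomotin-like 2 is a scaffold that binds YAP, LATS2 phosphorylates YAP and TAZ, and the LIM protein AJUBA restrains LATS kinases. All were lower in spheroids at both times. Amotl2 had 17.6, 16.0 and 15.1 CPM in 24 h spheroids and 77.1, 71.8 and 66.8 CPM in 0 h spheroids. It had 365.0, 526.1 and 501.0 CPM in 24 h attached cells and 550.4, 456.9 and 619.7 CPM in 0 h attached cells. The 3D libraries were below the 2D libraries at both times and lower at 24 h than at 0 h, and the 2D groups overlapped. It was 28.5-fold lower in 24 h spheroids (log2 fold change -4.83 ± 0.16, SE; edgeR adjusted p = 4.8e-13) and 7.55-fold lower at 0 h (log2 fold change -2.92 ± 0.15, edgeR adjusted p = 8.9e-11).

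Lats2 ranged from 30.5 to 47.9 CPM in 24 h spheroids, from 35.8 to 49.3 in 0 h spheroids, from 87.5 to 130.1 in 24 h attached cells and from 100.4 to 144.4 in 0 h attached cells. It was lower in 3D at both times, 2.86-fold at 24 h (edgeR adjusted p = 5.0e-06) and 2.76-fold at 0 h (edgeR adjusted p = 7.7e-06). Ajuba had 33.1, 19.2 and 29.1 CPM in 24 h spheroids and 13.1, 16.9 and 14.2 CPM in 0 h spheroids. It had 63.9, 73.9 and 78.1 CPM in 24 h attached cells and 37.8, 54.4 and 136.8 CPM in 0 h attached cells. The third library of 0 h attached cells stood high for Ajuba, and the coefficient of variation of 69.4% in that group was the highest of any gene and group here. Ajuba was 2.64-fold lower in 24 h spheroids (edgeR adjusted p = 0.0022) and 5.19-fold lower at 0 h (edgeR adjusted p = 2.7e-05). Without that high library the 0 h difference was 3.05-fold (edgeR adjusted p = 1.2e-05).

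**Figure D4:**
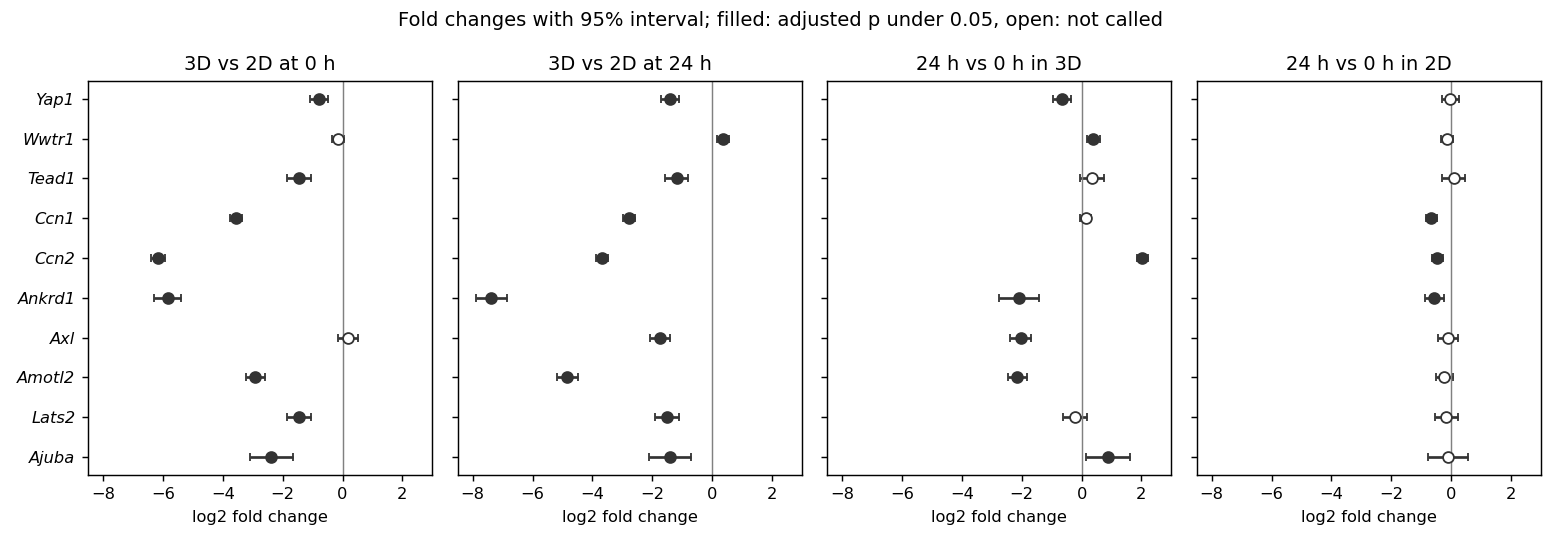
Log2 fold changes of the 10 genes with 95% intervals in 4 comparisons, filled where called at an adjusted p under 0.05 and open where not. Intervals left of 0 mean lower in 3D or at 24 h; the widest shifts are those of Ccn2 at 0 h (-6.17) and Ankrd1 at 24 h (-7.39), and the 2D time course lies near 0.

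By size, 7 of 10 genes were called at least 2-fold lower in 0 h spheroids and 9 of 10 at 24 h, where 8.21% and 10.7% of all genes were. At least 4-fold lower were 5 at 0 h and 4 at 24 h, where 2.08% and 3.93% of all genes were. Ajuba, among the 5, was under 4-fold without replicate 3 of 0 h attached cells and with limma (3.68-fold and 3.98-fold at the 2 pseudocounts). The libraries of the 2 cultures did not overlap for 9 genes at 0 h, all lower in 3D, and for all 10 at 24 h, where Wwtr1 alone was higher. Over all genes, 26.6% at 0 h and 27.2% at 24 h were lower in 3D without overlap. These 2 comparisons share no libraries. Over all genes, other scalings shifted the split: upper-quartile scaling gave 4025 higher and 2610 lower genes at 0 h, where TMM gave 3309 and 3255. At 24 h, 3648 were higher and 2708 lower with library totals, and 2815 and 3276 under TMM. The direction and call of every member held at both times in all alternatives that tested it.

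Within spheroids, the genes moved in both directions between 0 h and 24 h. Of the 10, 3 rose, 4 fell and 3 were not called, where 23.8% of all genes were called higher and 24.7% lower. Ccn2 was 4.10-fold higher at 24 h than at 0 h (log2 fold change 2.04 ± 0.09, SE; edgeR adjusted p = 2.2e-11), and 314 of the 14338 genes had a higher fold change. Wwtr1 rose by a log2 fold change of 0.39 ± 0.10 (edgeR adjusted p = 0.0029). Ajuba was higher by 0.89 ± 0.34 (edgeR adjusted p = 0.042), a call lost in 9 of 23 alternatives, among them DESeq2 (adjusted p = 0.092) and the omission of any of 5 spheroid libraries. Those were replicates 1 and 3 at 24 h (edgeR adjusted p = 0.13 and 0.099) and replicates 1, 2 and 3 at 0 h (0.12, 0.0602 and 0.10), and the call was also lost without replicate 3 of 24 h attached cells (0.051).

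Over the same interval Amotl2 fell by 2.14 ± 0.15 (log2, SE; edgeR adjusted p = 4.9e-09), Ankrd1 fell by 2.10 ± 0.32 (edgeR adjusted p = 3.7e-05) and Axl fell by 2.03 ± 0.17 (edgeR adjusted p = 3.0e-08). The size of the Ankrd1 fall, at its low counts, was 2.10-fold with limma on log2(TPM + 1), 3.54-fold with a pseudocount of 0.1 and 3.01-fold without replicate 1 of 24 h spheroids. Yap1 fell by 0.65 ± 0.14 (edgeR adjusted p = 0.0012). Ccn1 had a log2 fold change of 0.13 with an interval of -0.06 to 0.32, and was called higher with library totals alone (0.21, edgeR adjusted p = 0.043). Lats2 had one of -0.22 with an interval of -0.62 to 0.18.

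In attached cells the set moved little between the times. Of the 10, 3 fell, none rose and 7 were not called, where 17.0% of all genes were called lower and 17.4% higher. Ccn1 was 1.59-fold lower at 24 h than at 0 h (edgeR adjusted p = 3.8e-05), Ankrd1 1.47-fold (edgeR adjusted p = 0.010) and Ccn2 1.37-fold (edgeR adjusted p = 0.00081). Fold changes in this comparison went with relative effective transcript length across genes (Spearman's rho = 0.34). Ccn1, Ankrd1 and Ccn2 were longer than 40.3%, 40.0% and 48.8% of the genes tested, and the other 7 were longer than 69.1% to 90.7%. The part of length in these changes was not tested. With limma on the deposited log2(TPM + 1) values, the calls of Ccn2 (log2 fold change -0.24, adjusted p = 0.12) and Ankrd1 (-0.32, adjusted p = 0.18) were lost. In that fit 2891 genes were higher and 1257 lower, against 2489 and 2441 in the edgeR fit. Without replicate 3 of 0 h attached cells, Ajuba turned to a rise of 0.66 (edgeR adjusted p = 0.022), and without replicate 3 of 24 h attached cells Ankrd1 was no longer called (edgeR adjusted p = 0.051).

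The difference between the cultures itself changed with time for 7 of the 10 genes, by the test of that difference, where 39.1% of all genes were called. It was smaller in size at 24 h for Ccn2, whose log2 fold change moved by 2.49 ± 0.13 (SE; edgeR adjusted p = 2.1e-10), and for Ccn1, by 0.80 ± 0.13 (edgeR adjusted p = 8.4e-05). It was larger at 24 h for Amotl2 (-1.92 ± 0.20, edgeR adjusted p = 9.7e-07), Ankrd1 (-1.54 ± 0.36, edgeR adjusted p = 0.0024; -0.74 with limma on log2(TPM + 1)) and Yap1 (-0.62 ± 0.20, edgeR adjusted p = 0.018). Axl (-1.92 ± 0.23, edgeR adjusted p = 4.0e-06) and Wwtr1 (0.52 ± 0.14, edgeR adjusted p = 0.0061) were called between the cultures at 24 h alone. The call of Yap1 was lost in 6 of 22 alternatives, with edgeR adjusted p = 0.056 without replicate 2 of 24 h spheroids, 0.066 without replicate 1 of 0 h spheroids, 0.068 without replicate 2 of 24 h attached cells and 0.059 without replicate 1 of 0 h attached cells. With limma on log2(TPM + 1) it was also lost (adjusted p = 0.089), as was that of Wwtr1 (adjusted p = 0.099).

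For the remaining 3 genes a change with time was not called. The log2 difference was 0.27 for Tead1 (95% interval -0.27 to 0.82), -0.05 for Lats2 (-0.61 to 0.50) and 0.97 for Ajuba (-0.01 to 1.96). That of Ajuba depended on single libraries of 0 h attached cells: it was 1.35 and called without replicate 1 (edgeR adjusted p = 0.014), and 0.26 and not called without replicate 3 (edgeR adjusted p = 0.50). It was also called with no filter on low counts (0.99, edgeR adjusted p = 3.9e-05), where its size hardly moved. For all members called lower in 3D, at either time, that fit gave far smaller adjusted p-values at similar fold changes. Its call for Ajuba was therefore not taken as a change with time.

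**Figure D5:**
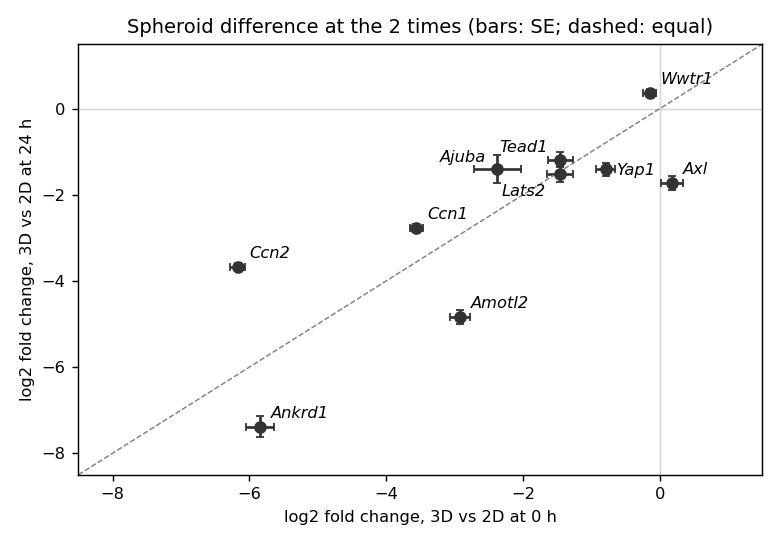
Log2 fold change of 3D against 2D at 0 h (x axis) and at 24 h (y axis) for the 10 genes, with SE bars and a dashed line where the times are equal. Ccn2, Ccn1, Ajuba, Wwtr1 and Tead1 lie above the line. Amotl2, Ankrd1, Axl, Yap1 and, by a little, Lats2 lie below it. The change with time was not called for Ajuba, Tead1 and Lats2. The axes share no libraries.

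The order of the 4 group means differed between genes. Ccn1, Ccn2, Ajuba and Tead1 were lowest in 0 h spheroids, while Yap1, Ankrd1, Axl, Amotl2 and Lats2 were lowest in 24 h spheroids. The 2 spheroid groups were not called different for Ccn1, Tead1 and Lats2. The 2 attached groups were not for 7 genes, all but Ccn1, Ccn2 and Ankrd1. Wwtr1 was lowest in 0 h spheroids and highest in 24 h spheroids, and its 3 lower groups did not differ between neighbours in the order.

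Likeness in pattern was described by Pearson's r of log2 CPM over the 12 libraries among the 9162 genes that averaged 10 CPM or more. These libraries fall into 4 groups, so r mainly reflects the group means. Amotl2 was the 6th gene most like Yap1 (r = 0.976), Amotl2 was also the 15th most like Ankrd1 (r = 0.975), and Ccn2 was the 58th most like Ccn1 (r = 0.964). Not all members went together. Wwtr1 had a negative r with every other member, from -0.85 with Axl to -0.06 with Ccn2, and -0.59 with Yap1. Apart from Wwtr1, r of Axl with the members ran from 0.17 with Ajuba to 0.75 with Amotl2. The gene outside the set most like Ccn1 was ENSMUSG00000036533 (r = 0.990), and the one most like Yap1 was ENSMUSG00000038587 (r = 0.986).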

How the data were processed

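The authors deposited expected counts per gene and log2(TPM + 1) values. Build GRCm39 and the tools RSEM, STAR and FastQC (0.11.9) come from the submitters' processing notes. Per the labels' protocols, RNA was prepared with SMART-seq v4 and stranded TruSeq mRNA kits. Columns named day 0 and day 1 were read as 0 h and 24 h. The deposited expected counts were rounded and fitted in R 4.3.3 with edgeR 4.0.16: expression filter (minimum count 10), TMM scaling, 1 quasi-likelihood model over 12 libraries with a term per group and 8 residual degrees of freedom, and Benjamini-Hochberg adjustment over 14338 genes. SEs are the log2 fold change over the root of F. The members and lists were chosen with earlier results of these data known. All 10 members are named, and the gene most like Ccn1 and Yap1 is given by ID. The 10 symbols came with the member IDs. The RefSeq table matched 0 of the files' IDs, so 9 further lists of pathway and marker genes (74 symbols) were not analysed here. Same-numbered libraries were not paired: their deviations from group means correlated at -0.23 to 0.05. Alternatives used limma 3.58.1 and DESeq2 1.42.0. Counts simulated with seeded changes were used to test the fit. The changes were seeded in a small share of the genes and in a single group, with all other genes alike between groups. Far more genes were called in the data, so the rates that follow need not hold there. In most runs the share of false calls exceeded the nominal one, and it reached 13.2%. Of seeded 2-fold changes 56.1% to 77.6% were recovered, and of 4-fold changes 82.5% to 95%.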

Additional observations from a re-analysis of the deposited data

Results flagged for a closer look

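For 7 genes the 3D against 2D difference at 24 h differed from that at 0 h by edgeR's test of the difference itself. The log2 difference was 2.49 for Ccn2, 0.80 for Ccn1 and 0.52 for Wwtr1, where spheroids stood relatively higher at 24 h. It was -0.62 for Yap1, -1.54 for Ankrd1, -1.92 for Axl and -1.92 for Amotl2, where spheroids stood relatively lower at 24 h. Among 14338 genes, 39.1% were called in this test.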

How the results depend on the processing

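Under 23 alternatives (22 for the difference between the times), no direction or call of a member changed in 3D against 2D at either time, although sizes did for Ankrd1 and Ajuba. Ccn2 is not among the genes tested when the 50 most abundant are left out. Reversals concerned log2 fold changes that were not called in the edgeR fit of all libraries: 21 for 24 h against 0 h in 2D and 6, all of Lats2, for the difference between the times. In 2D Yap1 stood at 0.025 with upper-quartile scaling and 0.034 with library totals. With limma on log2(TPM + 1) it stood at 0.14, Wwtr1 at 0.088, Axl at 0.14, Lats2 at 0.063 and Ajuba at 0.34, and with a pseudocount of 0.1 they stood at 0.14, 0.090, 0.14, 0.064 and 0.36. Both limma fits called 1 member lower in place of 3. Leaving out 1 library gave -0.10 to 0.11 for Yap1, -0.26 to 0.069 for Axl, -0.046 to 0.34 for Tead1, -0.33 to 0.0083 for Lats2 and -0.43 to 0.66 for Ajuba, and 0 to 1 member called higher. For the difference between the times it gave -0.24 to 0.14 for Lats2. The causes were not tested.

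With the replicate number as a block, the calls of all 50 values held, and Ajuba in 2D turned to 0.027, which was not called. Genes called then numbered 6127 at 0 h and 5681 at 24 h for 3D against 2D. Same-numbered libraries share only a number. Depth limits Ankrd1 in spheroids, which rests on 5 to 13 counts a library at 24 h.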
